A study of Mus musculus with 9 samples.

Results

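The genes described here encode the anchors that hold the epidermis to its basement membrane. They are the integrin subunits Itga6, Itgb4, Itgb1, Itga3 and Itga2, the hemidesmosome proteins Col17a1 and Dst, and the laminin chains Lama3 and Lamb3. The genes were chosen by symbol, with earlier results of these data known. The array had probe sets of 1 symbol for 8 of the 9, out of 14507 genes in all. Lama3 is not analysed here. The 8 genes were read by 303 probe sets, a probe set being a short stretch of a transcript measured by its own probes.

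The study asked how 3 epidermal compartments of mouse tail skin differ. The compartments are the interfollicular epidermis (IFE), which lies between the follicles, the hair follicle (HF) and the sebaceous gland (SG). All were microdissected from tail epidermis, and the animals were wild type C57BL6/CBA adult females of matched age, with no treatment. Each sample was pooled dissected pieces, so cell types within a compartment were not separated. Each compartment had 3 biological replicates, each on 1 exon array after its RNA was amplified.

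A basal keratinocyte holds to the basement membrane through the hemidesmosome, in which the α6β4 integrin and collagen XVII cross the cell membrane. Inside the cell, plectin and the epithelial form of dystonin tie this complex to keratins 5 and 14. Outside, the integrin binds laminin-332, a trimer that holds the chain encoded by Lamb3. Integrins with the β1 chain, among them α3β1, a laminin receptor, and α2β1, a collagen receptor, link instead to actin. Within the epidermis these anchors are known mainly from basal cells, but some are also made in other tissues.

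The name of the array in each description gave another compartment than the title for 9 of 9 arrays, and the titles were used. Marker genes went with the titles. The sebocyte list stood 2.46 higher on the log2 scale where the title was SG than elsewhere, the hair shaft list 4.01 higher in HF and the suprabasal list 0.887 higher in IFE (exact two-sided permutation test over 84 splits, p = 0.0119 for each, the smallest it can give, adjusted p = 0.0159 over 4 lists). The resting follicle list was 0.728 higher in HF, with an exact p of 0.119. The lists were chosen with earlier results of these data known, so this is no independent check of the titles. SG replicate 3 stood apart from its group. Its hair shaft list read 1.03 above the mean of the arrays against -1.56 in the lowest SG array, and it correlated at 0.930 with HF replicate 2 and at 0.921 with SG replicate 1. The array medians ran from 175.9 to 234.2 in deposited intensity.

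Values below are log2 intensities, each the median over the probe sets of a gene. A gene or probe set was called at an adjusted p under 0.05 (limma, Benjamini-Hochberg over all genes or all probe sets) and a difference of at least 1 on the log2 scale, which is 2-fold. The 3 comparisons share arrays, so they are not independent of each other.

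Of the 8 anchor genes, 3 were called lower than in IFE in each appendage, and Lamb3 and Dst did not pass the adjusted p in either. In SG against IFE, the 3 were Itga6, Itga2 and Itgb1, and no anchor gene was called higher. Of all genes 6.96% were called lower in that comparison. In HF against IFE, they were Itga6, Itga2 and Itgb4, where 3.36% of all genes were called lower. With the letter at the end of each array name as a block, 2 were called in SG (Itgb1 was lost) and 1 in HF (Itgb4 and Itga2 were lost), leaving Itga6 in both. What that letter stands for is not given in the labels. The 2-fold threshold split genes of near equal difference. At the adjusted p alone 6 of 8 were lower in SG, against 15.8% of all genes, and 5 of 8 were lower in HF, against 7.25%. The median difference over the 8 genes was -0.92 in SG and -0.91 in HF, beside -0.06 and -0.07 over all genes. Over the brighter 50% of genes, which hold every measured anchor gene but Itga2, the medians were -0.27 in SG and -0.19 in HF. In 6 of 8 genes all 3 IFE arrays lay above the other 6, which held for 12.4% of all genes. In these samples fewer basal cells and less RNA of a gene per basal cell cannot be told apart.

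**Figure D1:**
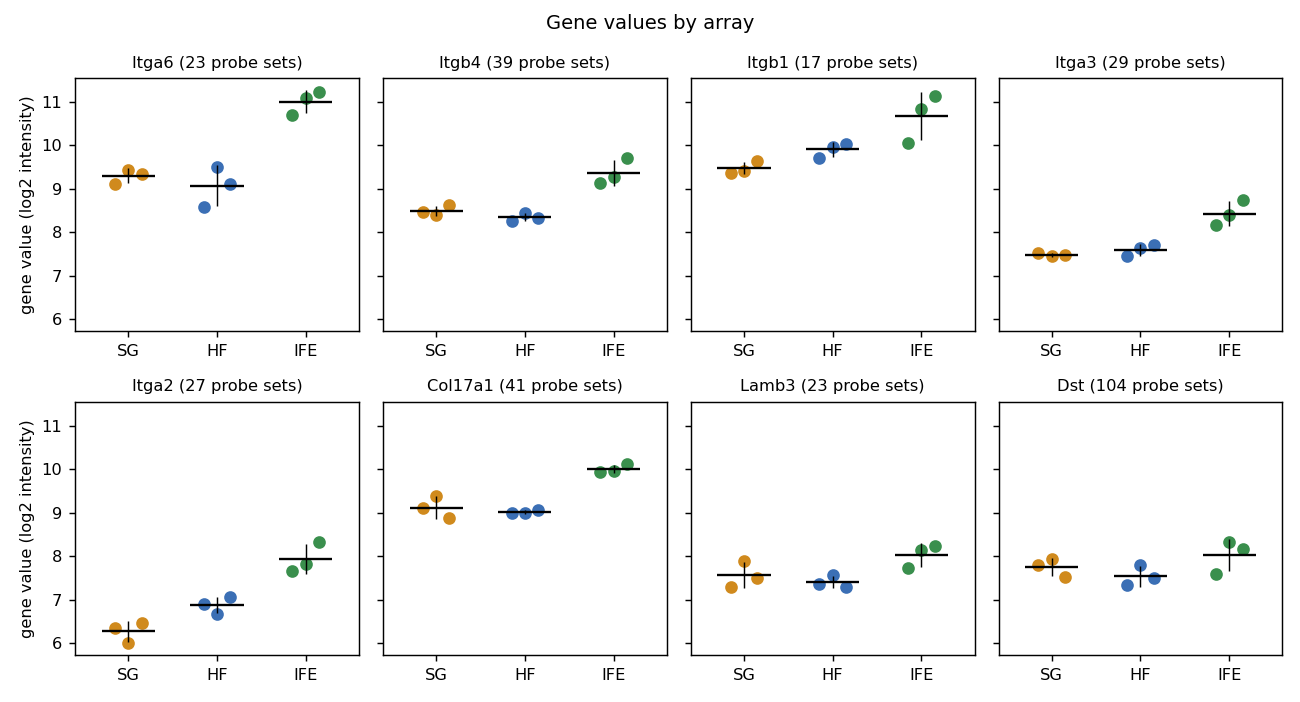
Gene values of the 8 anchor genes (vertical axis, log2 intensity) in SG, HF and IFE. Points are arrays, horizontal lines the mean and vertical lines 1 SD (n = 3). The IFE arrays of Itga6 lie from 10.70 to 11.22, above the other arrays, whose highest is 9.51, while those of Lamb3 overlap with SG and those of Dst with both other groups.

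Itga6 encodes the α6 chain, which pairs with β4 in the hemidesmosome and can also pair with β1. It read 9.11, 9.44 and 9.35 in the SG arrays, 8.57, 9.51 and 9.12 in the HF arrays and 10.70, 11.09 and 11.22 in the IFE arrays. Every IFE array was above every other array, with a gap of 1.19. The level was 3.26-fold lower in SG than in IFE (-1.71 on the log2 scale, SE 0.24, adjusted p = 4.9e-04) and 3.83-fold lower in HF (-1.94, SE 0.24, adjusted p = 2.7e-04). Both differences held across the gene, as 22 of 23 probe sets were called lower in SG and 23 of 23 in HF. Of all probe sets, 12.5% and 3.86% were. Both calls also held under each of the 22 other settings run. Among these, the adjusted p alone only drops the 2-fold threshold, so no call can be lost there. Leaving out an array of the compartment not compared changes the spread but not the difference. Both limits apply to the counts of settings given below as well. The difference between SG and HF was 0.23, with a 95% interval from -0.29 to 0.76.

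Itgb4 encodes the β4 chain, whose long tail reaches into the hemidesmosome plaque. It read 8.46, 8.40 and 8.63 in SG, 8.27, 8.45 and 8.32 in HF, and 9.14, 9.27 and 9.71 in IFE. The IFE arrays again lay above the others, with SG and HF close together. The difference was -1.03 in HF against IFE (SE 0.18, adjusted p = 0.0032), which was called, and -0.88 in SG (SE 0.18, adjusted p = 0.0053), which passed the adjusted p but not the 2-fold threshold. The call in HF was lost under 6 of 22 other settings, with a difference of -0.99 without HF replicate 1, -0.86 without IFE replicate 3, -0.82 with the letter block (adjusted p = 0.10) and -0.76 after quantile normalization. With array weights the SG difference was called, at -1.02. Over its 39 probe sets 9 were called lower in SG and 11 in HF, beside 12.5% and 3.86% of all probe sets.

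The 2 chains of a heterodimer can be set against each other within an array. The log2 ratio of Itga6 to Itgb4 was 0.87 higher in the 3 IFE arrays than in the other 6, with SDs of 0.16 and 0.28 and no overlap. That of Itga6 to Itgb1 was 0.83 higher, with SDs of 0.29 and 0.44 and no overlap. The ratio of Itga3 to Itgb1 differed by -0.10, and that of Itga2 to Itgb1 was 0.37 higher in IFE, both with overlapping arrays. These ratios were chosen after the values were seen, so they are given as a description with no test.

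Col17a1 encodes collagen XVII, a transmembrane collagen of the hemidesmosome. It read 9.10, 9.38 and 8.86 in SG, 8.98, 8.98 and 9.07 in HF, and 9.92, 9.96 and 10.11 in IFE. HF and IFE had little spread, and IFE stood clear of both others. The difference was -0.88 in SG (SE 0.17, adjusted p = 0.0036) and -0.99 in HF (SE 0.17, adjusted p = 0.0028), both past the adjusted p and under the 2-fold threshold. The HF difference crossed that threshold under 6 of the other settings that use it, at -1.02 without HF replicate 3, -1.03 without IFE replicate 1 and -1.01 without IFE replicate 2. Without SG replicate 2 the SG difference crossed it too, at -1.02. With the brightest probe set the differences were -1.25 and -1.44, both called. At probe set level 19 of 41 were called lower in SG and 27 of 41 in HF, beside 12.5% and 3.86% of all.

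Dst encodes dystonin, a large linker whose epithelial form lies in the hemidesmosome plaque and whose other forms are made in nerve and muscle. It read 7.79, 7.92 and 7.52 in SG, 7.32, 7.79 and 7.49 in HF, and 7.60, 8.31 and 8.17 in IFE. The groups overlapped, and neither difference passed the test (-0.28 in SG, SE 0.22, adjusted p = 0.40, and -0.49 in HF, SE 0.22, adjusted p = 0.18). The gene value hid a wide spread, since the differences of its 104 probe sets in SG against IFE ran from -3.16 to 0.86. Of these 12 were called lower in SG, or 11.5%, no more than the 12.5% of all probe sets. In HF 24 were, or 23.1%, against 3.86%. Of these 24, 21 were among the 56 probe sets at or above the median brightness of all probe sets. The other 3 were among the 48 dimmer ones. In SG 5 of the brighter and 7 of the dimmer probe sets were called lower. With the brightest probe set for the gene, the HF difference was -1.02 and called.

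Lamb3 encodes the β3 chain of laminin-332, the ligand of α6β4 and α3β1. It read 7.29, 7.89 and 7.50 in SG, 7.35, 7.57 and 7.29 in HF, and 7.71, 8.13 and 8.23 in IFE. SG replicate 2 reached into the IFE range, while the HF arrays lay below it. The differences, -0.47 in SG (SE 0.21, adjusted p = 0.13) and -0.62 in HF (SE 0.21, adjusted p = 0.073), did not pass the test. A single probe set of 23, or 4.35%, was called lower in each comparison, beside 12.5% of all probe sets in SG and 3.86% in HF.

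Itgb1 encodes the β1 chain, shared by the α2 and α3 integrins. It read 9.37, 9.42 and 9.63 in SG, 9.72, 9.97 and 10.04 in HF, and 10.06, 10.83 and 11.15 in IFE. The lowest IFE array lay 0.027 above the highest HF array, so HF and IFE nearly met. The difference was -1.21 in SG against IFE (2.31-fold, SE 0.25, adjusted p = 0.0048), called, and -0.77 in HF (SE 0.25, adjusted p = 0.064), not called. Of its 17 probe sets 8 were called lower in SG and 0 in HF, beside 12.5% and 3.86% of all probe sets. In HF all 17 still lay below 0. The SG call was lost under 5 of 22 other settings. With the brightest probe set in place of the median the difference was -0.38, and without IFE replicate 3 it was -0.97. It was -0.85 after quantile normalization and -0.92 with the letter block (adjusted p = 0.061). Leaving out IFE replicate 1 brought the HF difference past both thresholds, at -1.08.

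Itga3 encodes the α3 chain of the laminin receptor α3β1. It read 7.53, 7.45 and 7.48 in SG, 7.45, 7.64 and 7.72 in HF, and 8.16, 8.40 and 8.74 in IFE. All IFE arrays lay above the others, and the SG arrays were within 0.1 of each other. The differences of -0.95 in SG (SE 0.18, adjusted p = 0.0032) and -0.83 in HF (SE 0.18, adjusted p = 0.010) passed the adjusted p alone, and the former reached -1.08 and was called without IFE replicate 1, as it was with the brightest probe set, at -1.19. Over its 29 probe sets 10 were called lower in SG and 4 in HF, beside 12.5% and 3.86% of all probe sets.

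Itga2 encodes the α2 chain of the collagen receptor α2β1. It read 6.35, 5.99 and 6.46 in SG, 6.90, 6.68 and 7.05 in HF, and 7.66, 7.81 and 8.32 in IFE. The 3 groups did not overlap, with SG lowest and IFE highest. The level was 3.16-fold lower in SG than in IFE (-1.66, SE 0.21, adjusted p = 2.7e-04) and 2.07-fold lower in HF (-1.05, SE 0.21, adjusted p = 0.0069). The SG call held under the 21 other settings in which the gene was kept. The HF call was lost under 6 of 21, with a difference of -0.85 without IFE replicate 3 and -0.95 without HF replicate 2, the HF array most like SG replicate 3. It was -0.96 after quantile normalization, -0.87 with the letter block (adjusted p = 0.082) and -0.64 with the brightest probe set. Only 9 of its 27 probe sets reached the median brightness of the array, and 16 of the 18 dimmer ones were called lower in SG.

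**Figure D2:**
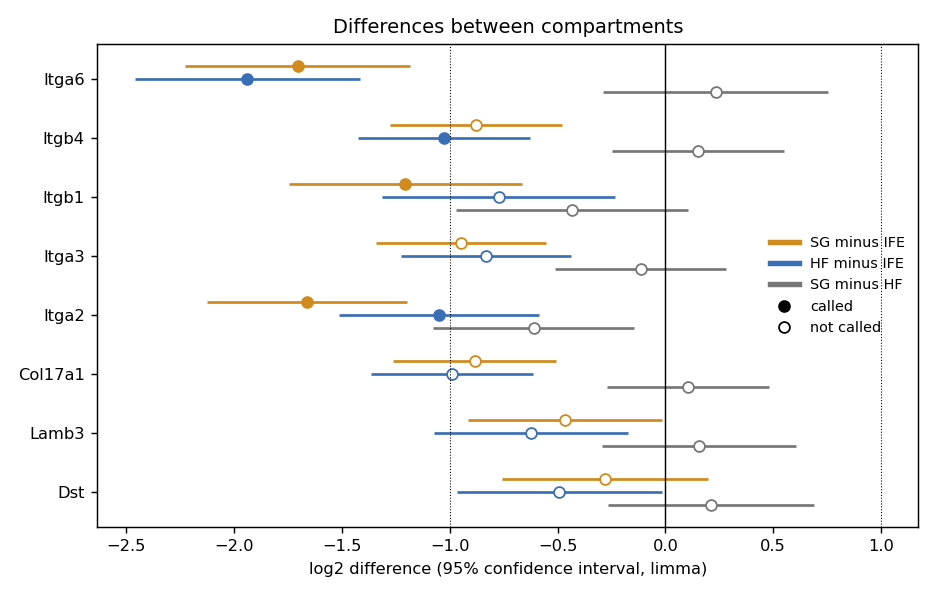
Log2 differences of the 8 anchor genes in the 3 comparisons (horizontal axis, with the 95% confidence interval of the limma fit). Filled points were called and dotted lines mark a 2-fold difference. The intervals of Itga6 against IFE end at -1.18 in SG and -1.42 in HF, and every interval of SG minus HF except that of Itga2 spans 0.

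Between the appendages the anchor genes were not called different in either direction, while 3.3% of all genes were called lower in SG than in HF and 1.81% higher. At an unadjusted p under 0.05 limma gave 1 of the 8. This was Itga2, at -0.61 (95% interval -1.08 to -0.15, adjusted p = 0.10), which the brightest probe set took to -1.08 and a call. Itgb1 stood at -0.43 (-0.97 to 0.11, adjusted p = 0.33). In these 2 genes all SG arrays lay below all HF arrays, as in 17.2% of all genes. The order of the group means was SG, HF, IFE for Itgb1, Itga3 and Itga2, and HF, SG, IFE for the other 5, with the first and second not called different in any of the 8.

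IFE replicate 1 was the lowest IFE array for 8 of the 8 genes, against 53.9% of all genes. Its difference from the mean of the other IFE arrays ran from -0.92 for Itgb1 to -0.11 for Col17a1. Averaged over the 8 genes, each centred on its own mean, the IFE arrays read 0.34, 0.70 and 0.93 and the other 6 arrays lay between -0.46 and -0.20.

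The probe sets of the 8 genes gave 104 called lower of 303 in SG against IFE, or 34.3%, and 102 in HF, or 33.7%, beside 12.5% and 3.86% of all probe sets. None was called higher in either. With the letter block, which in effect drops SG replicate 1, HF replicate 1 and IFE replicate 3, the counts were 22 and 4. Without IFE replicate 3 alone they were 59 and 57. In SG they were 62 after quantile normalization and 63 after median centring. In 148 probe sets, or 48.8%, the 3 IFE arrays lay above the other 6, where 13.9% of all probe sets did so. Between SG and HF 3 probe sets of Dst were called higher in SG and 2 of Itga2 lower, where 1.52% and 4.27% of all probe sets were. Probe sets of one gene read the same RNA and are not replicates.

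**Figure D3:**
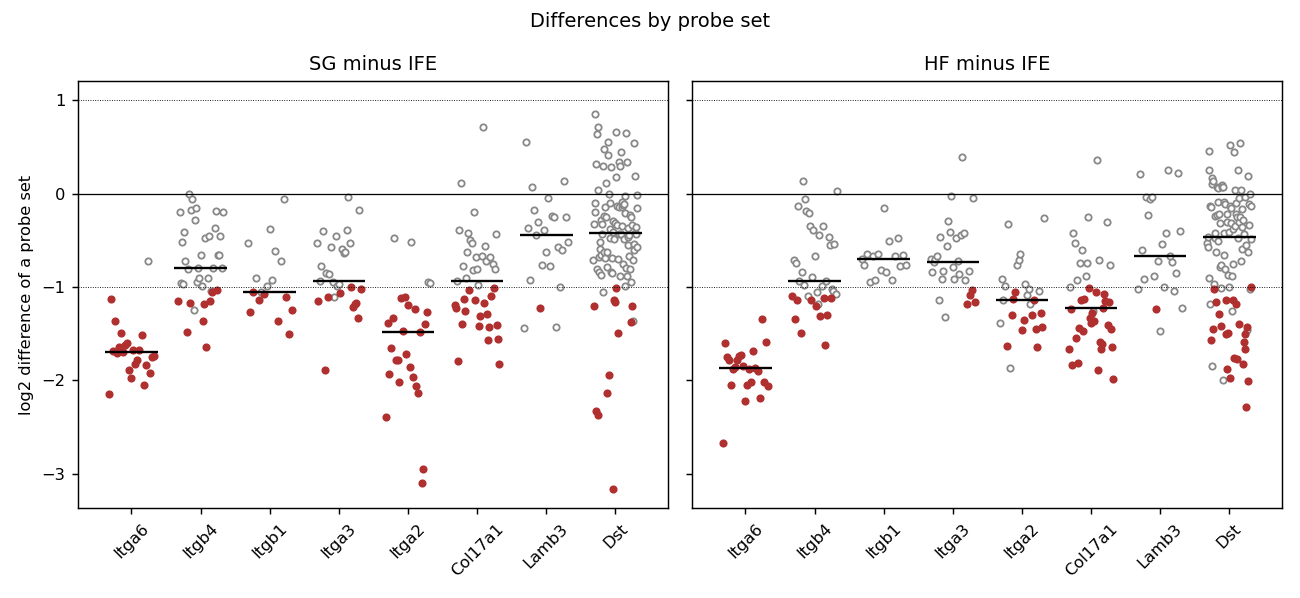
Log2 difference of each probe set (vertical axis) of the 8 anchor genes, in SG minus IFE and HF minus IFE. Filled red points were called, horizontal bars mark the median and dotted lines a 2-fold difference. All 23 Itga6 probe sets lie below 0, while those of Dst run from -3.16 to 0.86 in SG minus IFE.

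A probe set was next set against the other probe sets of its gene (limma diffSplice), which asks whether stretches of a gene differ to unequal extents. In SG against IFE this was called for Dst, Col17a1 and Itga2 by the Simes test over genes, as for 25.6% of all genes, and 4.67% of all probe sets were called. In HF against IFE it was called for Dst and Col17a1, as for 10.7% of genes and 1.51% of probe sets. Between SG and HF no anchor gene was called by Simes, where 11.1% of genes were, and 1 Dst probe set was, where 1.48% of all probe sets were. These shares mean that such a call is common on these arrays.

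Col17a1 probe set 5008991 ran against its gene. It read 10.47, 10.45 and 10.94 in SG, 10.46, 10.04 and 10.28 in HF, and 9.85, 9.96 and 9.89 in IFE. All IFE arrays were below the others, opposite to the gene as a whole. Its own difference from IFE was 0.72 in SG and 0.36 in HF, and it was called higher in neither. It stood 1.67 above the rest of the gene in SG against IFE (diffSplice adjusted p = 1.5e-06) and 1.55 above in HF (adjusted p = 1.6e-05). The brightest probe set of the gene, 4492463, followed the gene, with 12.30, 13.26 and 13.10 in SG, 12.53, 12.75 and 12.83 in HF, and 13.70, 14.21 and 14.51 in IFE.

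Of the 104 Dst probe sets, 6 differed from the rest of the gene by diffSplice in SG against IFE, where 4.67% of all probe sets did. In HF against IFE 3 did, where 1.51% of all did. In SG against IFE only 4361699 stood above the rest of the gene. The others called, 4796204, 4427728, 4389114, 4625091 and 4649019, stood below it. Of these only 4389114, with a mean of 7.99, reached the median of all probe sets, 7.64. Probe set 4796204 read 6.25, 5.56 and 4.32 in SG, 6.01, 6.59 and 7.37 in HF, and 7.94, 8.75 and 8.92 in IFE. The IFE arrays were the highest, and SG and HF overlapped. Set against the rest of the gene it stood at -2.74 in SG against IFE (adjusted p = 2.8e-08) and at -1.47 in SG against HF (adjusted p = 0.026). Probe set 4361699 read 10.23, 10.27 and 9.88 in SG, 9.16, 9.81 and 9.60 in HF, and 8.94, 9.36 and 9.49 in IFE, the SG arrays being the highest. It stood 1.32 above the rest of the gene in SG against IFE (adjusted p = 0.030). The brightest, 4459637, read 12.42, 13.00 and 12.80 in SG, 12.26, 12.15 and 12.32 in HF, and 12.96, 13.54 and 13.29 in IFE, with HF lowest.

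Dst is annotated with more than 1 start site, and its promoters are shown beside those of Col17a1 and Itga2. The Simes test also called Col17a1 and Itga2 in SG against IFE, as it did 25.6% of all genes. The promoter table of RefSeq (GRCm38.p6) held 9 windows for 6 of the 8 genes, and Itga6 and Itgb4 were not matched. Each window runs from 250 bases before a start to 50 after it. Capitals mark matches to GGGCGG (GC box), CCAAT or TATAAA on either strand.
Dst, the first start site, chr1:34011345-34011644 (+ strand): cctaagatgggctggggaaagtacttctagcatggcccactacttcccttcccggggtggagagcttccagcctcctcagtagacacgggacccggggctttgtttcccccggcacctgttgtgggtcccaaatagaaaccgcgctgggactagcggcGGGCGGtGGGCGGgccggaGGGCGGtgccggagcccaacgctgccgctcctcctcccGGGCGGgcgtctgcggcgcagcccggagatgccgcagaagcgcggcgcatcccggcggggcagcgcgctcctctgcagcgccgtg
Dst, the second start site, chr1:34160010-34160309 (+ strand): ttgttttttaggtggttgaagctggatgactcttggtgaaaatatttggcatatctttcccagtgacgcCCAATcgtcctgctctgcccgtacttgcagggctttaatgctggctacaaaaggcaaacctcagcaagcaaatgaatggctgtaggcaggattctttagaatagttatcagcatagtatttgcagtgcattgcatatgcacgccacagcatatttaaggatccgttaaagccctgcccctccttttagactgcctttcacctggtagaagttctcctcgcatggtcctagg
Col17a1, chr19:47691993-47692292 (- strand): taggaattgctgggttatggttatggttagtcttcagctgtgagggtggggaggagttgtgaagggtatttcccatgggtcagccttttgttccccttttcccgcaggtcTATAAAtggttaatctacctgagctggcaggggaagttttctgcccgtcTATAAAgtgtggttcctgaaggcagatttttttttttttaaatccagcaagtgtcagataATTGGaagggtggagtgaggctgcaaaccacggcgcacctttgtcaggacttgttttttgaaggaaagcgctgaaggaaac
Itga2, chr13:114932051-114932350 (- strand): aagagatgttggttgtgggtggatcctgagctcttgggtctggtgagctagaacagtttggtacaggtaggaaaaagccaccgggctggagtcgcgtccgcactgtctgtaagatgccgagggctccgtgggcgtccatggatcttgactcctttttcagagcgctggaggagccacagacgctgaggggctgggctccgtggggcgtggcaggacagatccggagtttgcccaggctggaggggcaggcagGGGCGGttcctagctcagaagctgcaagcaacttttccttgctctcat
The first Dst window had 4 GC boxes, at -92, -85, -73 and -35 from the start, and the second had none of these but a CCAAT at -181. The Col17a1 window had TATAAA at -140 and -91 and a CCAAT on the other strand at -31. Itga2 had 1 GC box at 2. Over the 9 windows a GC box was found in 5, where 35.7% of 32851 promoters hold one. CCAAT was found in 3, where 37.4% do, and TATAAA in 1, where 13.6% do. The AP-1 letters TGANTCA were found in 1, the second Itga3 window, where 7.81% of promoters hold them, and the Tcf and Lef letters CTTTGAT in 0, where 3.73% do. Matches of different motifs did not overlap. The array build differs from that of the promoters, so no probe set was assigned to a start site.

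Of 8 measured genes listed as hemidesmosome and laminin-332 partners, Krt15 alone was called, and it was higher in both appendages. Krt15 is also on the list of basal keratinocyte markers, and its binding to the hemidesmosome was not examined. Of all genes 2.54% were called higher in SG and 2.96% in HF. Krt15, a keratin of basal and follicle stem cells, read 12.57, 13.07 and 12.59 in SG, 12.31, 12.57 and 12.52 in HF, and 10.90, 11.11 and 11.29 in IFE. It was 3.13-fold higher in SG than in IFE (1.65, SE 0.19, adjusted p = 1.5e-04) and 2.58-fold higher in HF (1.37, SE 0.19, adjusted p = 6.0e-04). With the brightest probe set it stood at 0.79 and 0.88, under the 2-fold threshold. Plec, which encodes plectin, stood at -0.75 in SG (adjusted p = 0.0093) and -0.54 in HF (adjusted p = 0.064), and Col7a1, the anchoring fibril collagen, at -0.63 (adjusted p = 0.015) and -0.45 (adjusted p = 0.091). Erbin, a binding partner of β4, stood at -0.71 (adjusted p = 0.042) and -0.38 (adjusted p = 0.30). At an unadjusted p under 0.05 limma gave 4 of the 8 in SG, 3 of them lower, and 3 in HF, 2 of them lower. The partners were not tested against the anchors. The median of the 8 partners was -0.12 in SG and -0.14 in HF.

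Basal keratinocyte markers were measured beside the anchors. Krt5 and Krt14, the keratins of basal cells, were bright in every array, from 12.12 to 12.93 and from 12.55 to 13.35, and their differences from IFE did not pass the test (Krt5 -0.10 and -0.29, Krt14 0.24 and 0.01). Trp63, a transcription factor of basal cells, stood at -0.97 in SG (adjusted p = 0.011) and -0.93 in HF (adjusted p = 0.020). Of the 9 markers on the list, Krt15 was called higher and Sox6 lower in each comparison with IFE. The summed list lay from -0.21 to 0.21 in SG, from -0.18 to -0.02 in HF and from 0.02 to 0.29 in IFE, as the mean centred log2 value. The log2 ratio of Itga6 to Krt14 was 1.95 higher in IFE than in the other 6 arrays (SDs 0.35 and 0.49, no overlap), and that of Itga6 to Trp63 was 0.87 higher (SDs 0.15 and 0.40, no overlap). These ratios too were chosen after the values were seen and were not tested.

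**Figure D4:**
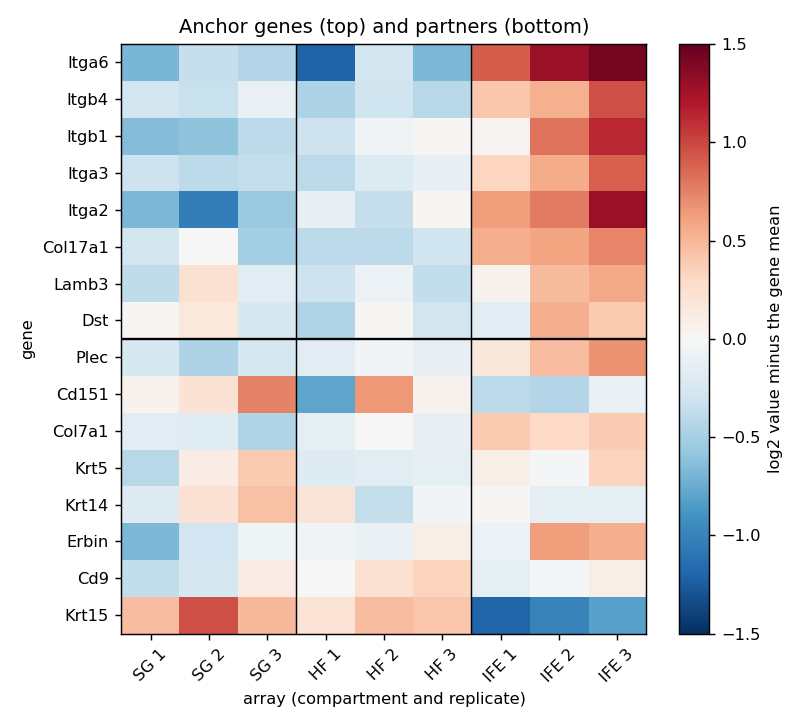
Log2 value minus the mean of the gene over 9 arrays (colour) for the 8 anchor genes (above the line) and 8 partners (below it), by array. Itga6 is highest in the 3 IFE arrays, Krt15 is lowest there, and Krt14 shows no such split.

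Other genes moved with the compartments too. Against IFE, 6.96% of all genes were called lower and 2.54% higher in SG, and 3.36% and 2.96% in HF. Of 14 measured immediate early genes, which respond to handling and stress, 11 were called lower in SG than in IFE, and 6 lower and 1 higher in HF. Their mean centred value lay from -0.90 to -0.54 in SG, -0.34 to 0.17 in HF and 0.37 to 1.17 in IFE. Of 9 suprabasal markers 5 were called lower and 1 higher in SG, and 4 lower and 1 higher in HF. The dermal fibroblast list lay from -0.16 to 0.50 in SG, -0.07 to 0.03 in HF and -0.24 to 0.06 in IFE, with 0 of 7 called by limma in SG (2 at an unadjusted p under 0.05) and 1 higher and 1 lower in HF. The endothelial list lay from 0.02 to 0.18, -0.10 to 0.11 and -0.25 to 0.06, with 0 of 8 called in either and 1 and 0 at an unadjusted p under 0.05. Of 12 resting follicle genes 7 were called higher in SG and 8 in HF, and their mean centred value lay from 0.26 to 0.53 in SG, 0.41 to 0.60 in HF and -0.98 to -0.79 in IFE. Of 8 Langerhans cell genes 3 were called lower in HF, with values from 0.20 to 0.34 in SG, -0.50 to -0.31 in HF and 0.02 to 0.21 in IFE. Of 7 melanocyte genes 1 was called higher in SG and 2 in HF, with values from -0.25 to 0.75, -0.02 to 0.12 and -0.56 to -0.07. The part of any of these in the anchor genes' differences was not tested.

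Among 10 other integrin subunits, Itgb5 (-1.68, SE 0.20, adjusted p = 1.7e-04) and Itgav (-1.22, SE 0.23, adjusted p = 0.0033), which pair as a vitronectin receptor, were called lower in SG than in IFE. So were 6.96% of all genes. By limma 0 were called in HF against IFE and in SG against HF, with 3 at an unadjusted p under 0.05 in each. The Itgav call was lost after quantile normalization (-0.84) and with the letter block (adjusted p = 0.050). The median difference of the 10 subunits in SG was 0.15, while their mean centred value was lower in SG (-0.14) than in IFE (0.03). Of 7 integrin-linked tetraspanins limma called 0 in any comparison, with 2 at an unadjusted p under 0.05 in SG against IFE and 3 in each of the others.

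Of 26 basement membrane components 2 were called higher and 2 lower in SG against IFE, and 1 higher and 2 lower in HF. Beside these stand 2.54% of all genes called higher and 6.96% lower in SG, and 2.96% and 3.36% in HF. The lower ones were Dag1, the laminin receptor dystroglycan (-1.33 and -1.19, SE 0.18, adjusted p = 3.6e-04 and 0.0010), and Fras1, a protein of the dermal and epidermal junction (-1.34 and -1.20). Both Dag1 calls were lost after quantile normalization, at -0.91 and -0.90. The higher ones were Egfl6 (1.25 in SG and 1.89 in HF) and, in SG, Lama4 (1.38). In SG against HF, Sparc (1.48) and Lama4 (1.15) were called higher, as were 1.81% of all genes. The Sparc call was lost without HF replicate 3 (1.29), and that of Lama4 without SG replicate 1 (0.87) or 2 (1.07) or HF replicate 1 (1.07) or 3 (1.18). Fras1 turned to 0.22 in SG and 0.21 in HF, and Egfl6 to -0.01 in SG and 0.04 in HF, when the brightest probe set stood for the gene. Lama4 in SG against IFE was then 0.59. With the letter block the Sparc and Lama4 calls between SG and HF were lost (adjusted p = 0.058 and 0.21).

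Of 20 integrin adaptors, Actn1, the actin crosslinker α-actinin, was called higher in both appendages (1.56 in SG and 2.72 in HF, SE 0.26, adjusted p = 0.0014 and 5.4e-05) and lower in SG than in HF (-1.16), the last not without HF replicate 2 (-1.06) or 3 (-1.14), where the adjusted p was 0.056 and 0.063, or with the letter block, where it was 0.084. Fermt2, or kindlin-2, was called higher in SG (1.20), but stood at 0.77 with the brightest probe set. Tns4, a tensin, was called lower in SG (-1.04) and in HF (-1.45). The SG call was lost without SG replicate 1 (-0.94) or 2 (-0.87) or IFE replicate 3 (-0.92). It was also lost after quantile normalization (-0.64) or median centring (-0.95), with the letter block (-0.82), and with the mean (-0.97) or brightest (-0.80) probe set. The list median was -0.23 in SG and -0.06 in HF. Beside these calls stand 2.54% of all genes called higher and 6.96% lower in SG against IFE. The shares were 2.96% and 3.36% in HF against IFE, and 3.3% were called lower in SG than in HF.

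The genes with the nearest profile to each anchor gene were sought among 13768 genes, by the root mean square difference of centred log2 values over the 9 arrays. For Itga6 they were Zfp652 (0.16), Glrx (0.17) and Jak1 (0.18), and for Itgb4 Thbs2 (0.08), Fam20b (0.10) and Sphk1 (0.12). For Itgb1 they were Btbd3 (0.12), Kif13a and Lrrc4 (0.13 each), for Itga3 Ccdc14 (0.087), Ctdsp2 (0.098) and Mst1r (0.11), and for Itga2 Fgfr2 (0.13), Ccl6 (0.16) and Ptpn13 (0.17). For Col17a1 they were Zcchc7 (0.12), Ss18 (0.13) and Tsr1 (0.15), for Lamb3 Slmap, Abi2 (both 0.085) and Cyld (0.094), and for Dst Rreb1 (0.10), Wrn (0.11) and Kpna1 (0.11). Within the anchors Itgb4 and Itga3 were the nearest pair (0.14), with 3 other genes nearer to Itgb4 than Itga3 was. The nearest anchor to Itga6 was Itgb4 (0.47), and 284 other genes were nearer. Over 9 arrays such likeness is a description.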

How the data were processed

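The authors deposited an intensity for each of 154736 probe sets on 9 arrays, on a linear scale from 2.501 to 30814.8. RMA, Affymetrix Power Tools and mm9 are named per the submitters' processing notes. No detection calls were used, so signal over background is unknown, and dim genes may show compressed differences.

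Log2 was taken with no pseudocount or further normalization. Of these probe sets, 146964 had 1 gene symbol, 1060 several and 6712 none. Only the first were used. Symbols were updated for 1754 genes, and 14472 matched the RefSeq table. A gene's value is the median over its probe sets. limma 3.58.1 in R 4.3.3 (lmFit, eBayes) fitted one mean per titled compartment over all 9 arrays, and diffSplice compared probe sets within genes. The code was tested on simulated data. The number of arrays limits the precision.

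The genes named are all members, from each pathway list up to 4 called genes with the smallest p and 2 in the opposite direction, the nearest 3 profiles per member, and the probe sets with extreme level or difference. Not all such probe sets are printed. Members and lists were chosen with earlier results of these data known. The 6 within-array ratios were chosen after seeing the data and were not tested. Alternatives covered normalization, probe set summary, filters, blocks, weights and leaving out arrays.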

Additional observations from a re-analysis of the deposited data

How the results depend on the processing

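The log2 difference of each of the 8 anchor genes stayed below 0 against IFE in both appendages under all alternatives run. Itga6 (both comparisons) and Itga2 (SG) kept their calls in each in which they were fitted. At the adjusted p alone the differences are those of the main fit, and no call can be lost. Itga2 is not among the brighter 50% of genes. Anchor genes called in HF against IFE numbered 3, but 1 after quantile normalization or with the array names' letter as a block and 5 at the adjusted p alone. In SG they numbered 3, but 5 with array weights and 6 at the adjusted p alone. The letter block in effect drops SG replicate 1, HF replicate 1 and IFE replicate 3, which share their letter with no other array. Between SG and HF the brightest probe set gave 1 call where there were 0. Genes called numbered 1377, 916 and 741 in SG against IFE, HF against IFE and SG against HF. At the adjusted p alone they numbered 3171, 1750 and 1373, without the dimmer genes 597 in HF against IFE, and with the letter block 392 in SG against HF. Of genes called in SG against IFE 26.7% were higher, and 46.1% after quantile normalization.

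Anchor probe sets called in SG against IFE numbered 104, but 62 after quantile normalization, 63 after median centring and 22 with the letter block. In HF against IFE they numbered 102 and 4 with that block. Between SG and HF they numbered 5, but 9 after median centring, 0 with the block and 8 without SG replicate 3 and HF replicate 2. Leaving out 1 array in turn gave 2 to 4, 1 to 5 and 0 to 0 anchor genes in SG against IFE, HF against IFE and SG against HF, 1146 to 1752, 763 to 1146 and 535 to 994 genes, and 59 to 134, 57 to 123 and 0 to 7 anchor probe sets. Fras1 turned to 0.22 and 0.21 with the brightest probe set, and Egfl6 in SG to -0.014 with it or with the brighter probe sets. The cause of these changes was not tested.

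Deviations of same-numbered arrays correlated from -0.02 to 0.23, and those of arrays with other numbers from -0.16 to 0.11. On average 7 of 9 arrays correlated best with arrays of their own number. Whether replicate numbers pair the arrays was not tested. The replicate block changed no call of an anchor gene, with 3, 3 and 0 called.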
